A study of Mus musculus with 29 samples.

Results

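Mo1 is 1 of the 5 monocyte subtypes that the authors' deposited annotation gives for mouse blood. Its members were the blood cells with the parent code Mo and the sub-cluster code Mo1, and there were 1929 of them, among 6558 blood monocytes, 51709 blood cells and 106977 cells in all 29 libraries of the series. The other subtypes held 1898 (Mo2), 1758 (Mo3), 545 (Mo4) and 428 cells (Mo5). Transcripts were counted by Drop-seq, a droplet method in which each cell is sealed in with a bead that tags its transcripts. Each of the 11 blood libraries pooled the leukocytes of 2 male C57BL/6J mice of 8 to 10 weeks, after lysis of red cells and removal of Ter-119 positive cells, with the transcription inhibitor actinomycin D present during isolation. Stroke was modelled by closing the middle cerebral artery for a time and then reopening it. There were 4 libraries 2 days after sham surgery, 4 libraries 2 days after stroke and 3 libraries 14 days after stroke. No sham blood library of day 14 was analysed here, so stroke and the time since surgery cannot be told apart at day 14, and both stroke groups were compared with the same sham libraries.

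Monocytes are short-lived phagocytes that leave the bone marrow and circulate. In mice, classical monocytes carry Ly6C and the chemokine receptor CCR2, enter inflamed tissue, and can turn into nonclassical monocytes, which have little Ly6C, depend on the transcription factor NR4A1 and patrol vessel walls. After a stroke, classical monocytes are recruited into the injured brain. A further kind of classical monocyte, described as neutrophil-like, carries transcripts of granule proteins.

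Mo1 carried the transcripts of classical monocytes. Levels are given as CPM, a gene's count scaled to a fixed total of 1000000, from the counts summed over the Mo1 cells of a library, or over all libraries where a level is called pooled. Lyz2, which encodes lysozyme, stood at a pooled 56149 CPM, Ccr2 at 3292 CPM and Ly6c2, which encodes a Ly6C antigen, at 1791 CPM. Csf1r, the receptor that monocytes need for survival, stood at 371 CPM in Mo1, at 346 CPM in Mo2 and at 768 CPM in Mo3, and it was found in every Mo1 library. The 12 classical markers summed to 16960 CPM in Mo1, 23322 CPM in Mo2, 3459 CPM in Mo3, 20257 CPM in Mo4 and 10914 CPM in Mo5. The 15 nonclassical markers summed to 2640 CPM in Mo1, 2147 CPM in Mo2, 13716 CPM in Mo3, 2990 CPM in Mo4 and 5380 CPM in Mo5. The label of a monocyte and a classical marker profile were therefore both present in Mo1. Mo2 and Mo4 shared this profile.

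Markers of other blood cells were low in Mo1. The 10 neutrophil markers summed to 66.7 CPM in Mo1, with 6 of them (Retnlg, Cxcr2, S100a9, Mmp9, Camp and Ltf) listed at 0, against 252898 CPM in the neutrophils of the same libraries. The neutrophil sum ranged from 25.3 to 76.5 CPM over sham libraries, from 48.6 to 101 CPM at stroke day 2 and from 61.6 to 98.0 CPM at stroke day 14. B cell markers summed to 29.2 CPM, T cell markers to 10.9 CPM, platelet markers to 1.77 CPM, erythroid markers to 0.547 CPM and basophil markers to 3.01 CPM. Dendritic cell markers summed to 209 CPM, with Siglech and Zbtb46 listed at 0, against 3398 CPM in dendritic cells. NK cell markers summed to 19.9 CPM and reached 185 CPM in 1 library of stroke day 14. The deposited counts are not whole numbers, and the step that made them so is not given in the sources used here. The part of that step in these low sums and zeros was not tested.

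Libraries held between 4 and 498 Mo1 cells, with median totals of 455 to 1473 counts per Mo1 cell and median mitochondrial shares of 2.32% to 4.67%. The stroke day 2 library of replicate 2 held 4 Mo1 cells and 2446 counts, and it was left out of the gene tests. The other 10 libraries held 54302 to 413363 counts in Mo1. Of 51622 blood barcodes, 86 occurred in more than 1 library, and 6 Mo1 cells carried such a barcode. The libraries carry a code that starts with GR18 (replicates 1 and 2 of both day 2 groups and replicate 1 of day 14) or GR19 (the rest), and the labels do not say what the code stands for. Nothing in the labels says whether libraries came from separate operations. The p-values for shares and for Mo1 genes between groups thus measure the spread between pools of mice, across both code starts.

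The share of Mo1 among monocytes varied widely between libraries of 1 group. In sham libraries Mo1 made up 9.17%, 15.2%, 39.0% and 37.1% of monocytes in replicates 1 to 4. At stroke day 2 it made up 9.91%, 1.88%, 26.5% and 17.9%, where the 4 cells of replicate 2 allow a share of 0.514% to 4.74% (exact 95% binomial interval, counting error only). At stroke day 14 it made up 47.5%, 48.4% and 34.0%. The day 14 libraries lay above all 4 libraries of stroke day 2 and overlapped those of sham.

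The means were 25.1% ± 15.1 (SD, n = 4) in sham, 14.1% ± 10.6 (SD, n = 4) at stroke day 2 and 43.3% ± 8.04 (SD, n = 3) at stroke day 14. None of the 3 differences passed an exact two-sided permutation test adjusted over the 3 comparisons. The smallest unadjusted p possible in this test was 0.0286 for 4 against 4 libraries and 0.0571 for 3 against 4. No adjusted p under 0.05 was therefore possible, and the lack of a call carries no information. The difference of stroke day 2 from sham was -11.1 percentage points (exact p = 0.286, adjusted p = 0.286). The difference of day 14 from sham was 18.2 points (exact p = 0.171, adjusted p = 0.257). The difference of day 14 from stroke day 2 was 29.3 points at the smallest p that 3 against 4 libraries allow (exact p = 0.0571, adjusted p = 0.171).

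The library code moved with these shares. Among GR19 libraries Mo1 made up 37.1% to 39.0% of monocytes in sham, 17.9% to 26.5% at stroke day 2 and 34.0% to 48.4% at day 14. Among GR18 libraries the values were 9.17% to 15.2%, 1.88% to 9.91% and, in its single day 14 library, 47.5%. With 2 libraries in each day 2 group of a set, stroke day 2 lay below sham without overlap among GR19 libraries and overlapped sham among GR18 libraries. Day 14 lay above sham without overlap among GR18 libraries, with 1 library there, and overlapped sham among GR19 libraries.

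The share of Mo2 lay lower at day 14 than in any day 2 library. Mo2 made up 31.8%, 50.7%, 35.2% and 18.3% of monocytes in sham, 51.8%, 59.2%, 57.0% and 50.9% at stroke day 2, and 1.51%, 2.14% and 4.71% at stroke day 14. Among the monocytes other than Mo2, Mo1 made up 13.5% to 60.2% in sham, 4.6% to 61.7% at stroke day 2 and 35.7% to 49.5% at day 14. On that scale the mean difference of day 14 from stroke day 2 was 13.7 points (exact permutation p = 0.457, adjusted p = 0.657), so the separation of the groups was not found once Mo2 was left out of the total.

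**Figure D1:**
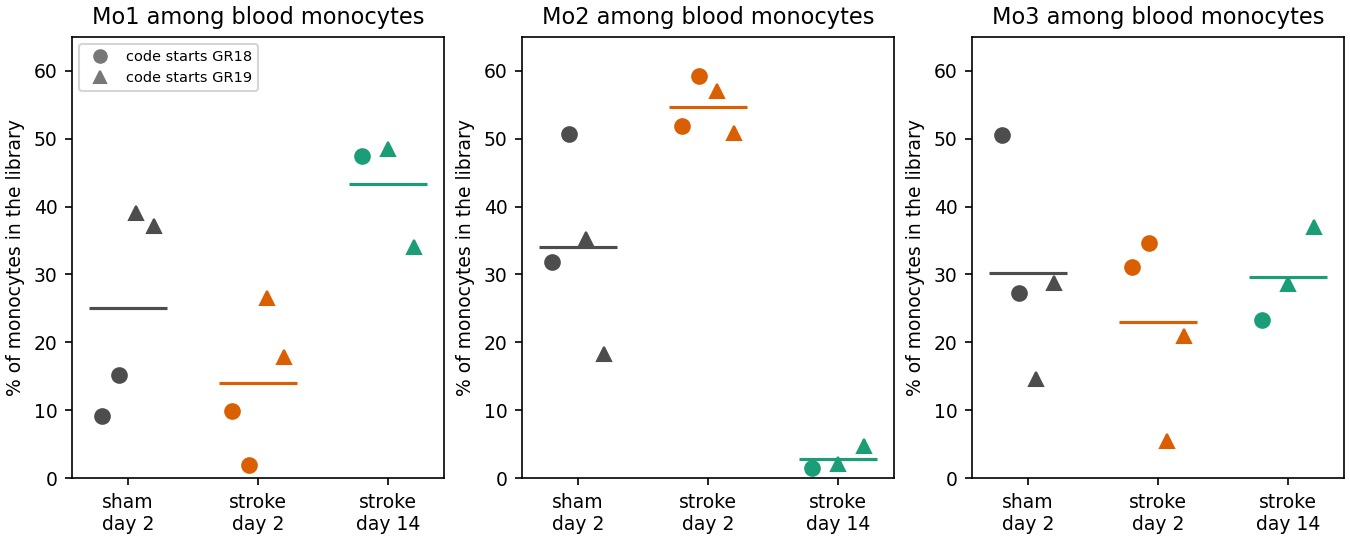
Share of Mo1, Mo2 and Mo3 among the blood monocytes of each library (y axis, percent) by group (x axis). Each point is 1 library of 2 pooled mice, circles and triangles mark the start of the library code, and lines are group means. Mo1 stands at 34.0% to 48.4% in the day 14 libraries, where Mo2 falls to 1.51% to 4.71%.

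Of all blood cells, Mo1 made up 0.838% to 6.42% in sham, 0.169% to 4.11% at stroke day 2 and 3.58% to 10.0% at stroke day 14. A fit of cell numbers over 37 blood subtypes with edgeR called 0.0% of subtypes between stroke day 2 and sham, 21.6% between day 14 and sham and 35.1% between day 14 and stroke day 2, at an adjusted p under 0.05. Mo1 was not called in any of them. Its log2 difference was -1.17 ± 0.83 (SE) for stroke day 2 against sham (edgeR adjusted p = 0.789), 0.91 ± 0.88 for day 14 against sham (adjusted p = 0.567) and 2.07 ± 0.89 for day 14 against stroke day 2 (adjusted p = 0.0867). In the same edgeR fit Mo2 was lower at day 14 by -3.65 ± 0.67 against sham (adjusted p = 0.00486) and by -3.84 ± 0.68 against stroke day 2 (adjusted p = 0.0014). Neutrophils, which share the total, made up 11.7% to 69.6% of the cells of the stroke day 2 libraries and 11.4% to 22.4% at day 14.

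The genes that set Mo1 apart from the other monocytes are a description, since the subtypes were made from these same genes, and they carry no test. They are the 12 highest and the 12 lowest log2 ratios of pooled CPM, with 10 CPM added to both, among genes of at least 200 CPM that kept 1 direction in all 10 libraries. The highest ratios were those of Ifi27l2a, an interferon-inducible gene (0.88), of S100a10, which encodes a partner of annexin A2 (0.88), of Crip1, which encodes a small LIM domain protein (0.87), and of Ly6c2 (0.77). Below them came Ccl9 (0.68), a chemokine, Lgals1 (0.61), which encodes galectin-1, S100a4 (0.58), an S100 calcium-binding protein, and Vim (0.53), the intermediate filament vimentin. Reep3 (0.60), the histone variant gene H2afz (0.58), Cstb (0.50), an inhibitor of cathepsins, and the actin-binding Tmsb10 (0.50) completed the set.

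The largest gaps on the low side were those of Cd300e (-4.85), an activating myeloid receptor listed at 0 in Mo1, and Cd36 (-3.96), a scavenger receptor for lipids. Treml4 (-2.50), Fcgr4 (-2.48), an Fc receptor of nonclassical monocytes, Ear2 (-2.43), Pglyrp1 (-2.02) and Spn (-1.74), which encodes CD43, followed. Cd300ld (-1.73), Smc6 (-1.62), Hfe (-1.47), Apoe (-1.02) and Pla2g7 (-0.97), a phospholipase of lipid mediators, were the rest. Most of these contrasts came from Mo3: Cd36 stood at 850 CPM there, at 9.95 CPM in Mo1 and at 6.37 CPM in Mo2.

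Against Mo2 alone, the contrast was narrower on the high side and turned for several genes on the low side. Ifi27l2a, S100a10, Crip1 and S100a4 were higher in Mo1 in 9 of 9 libraries, whereas Ly6c2 was higher in 5 and lower in 4. Treml4, Ear2 and Hfe, low in Mo1 against all other monocytes, were higher in Mo1 than in Mo2 in 8 of 9 libraries, and Spn in 7, while Pla2g7 was lower in 8. Some of the genes called between groups in Mo1 also stood apart from Mo2. As means of the 4 sham libraries, since pooled levels mix groups in unlike proportions in the 2 subtypes, Wfdc21 stood at 394 CPM in Mo2 and 77.9 CPM in Mo1, Saa3 at 642 and 149 CPM, and Lrg1 at 292 and 94.0 CPM. Wfdc21 and Lrg1 were higher in Mo2 in all 4 of these libraries, and Saa3 in all but sham replicate 2 (108 CPM in Mo2 and 289 CPM in Mo1). Chil3, which was not called between groups, stood at 6286 CPM in Mo2 and 3978 CPM in Mo1. Other called genes were closer in Mo2 and Mo1: Apoe (993 and 1020 CPM), Dpep2 (174 and 180.5 CPM) and Wfdc17 (2884 and 2594 CPM). Prtn3 stood at 159 and 90.4 CPM. Against Mo4, which held the interferon-induced Ifit3 at 347 CPM against 5.87 CPM in Mo1, Ifi27l2a was lower in Mo1 in 6 of 6 libraries. Against Mo5, Mo1 was low in the genes of MHC class II, with H2-Ab1 at 102 CPM against 5000 CPM.

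**Figure D2:**
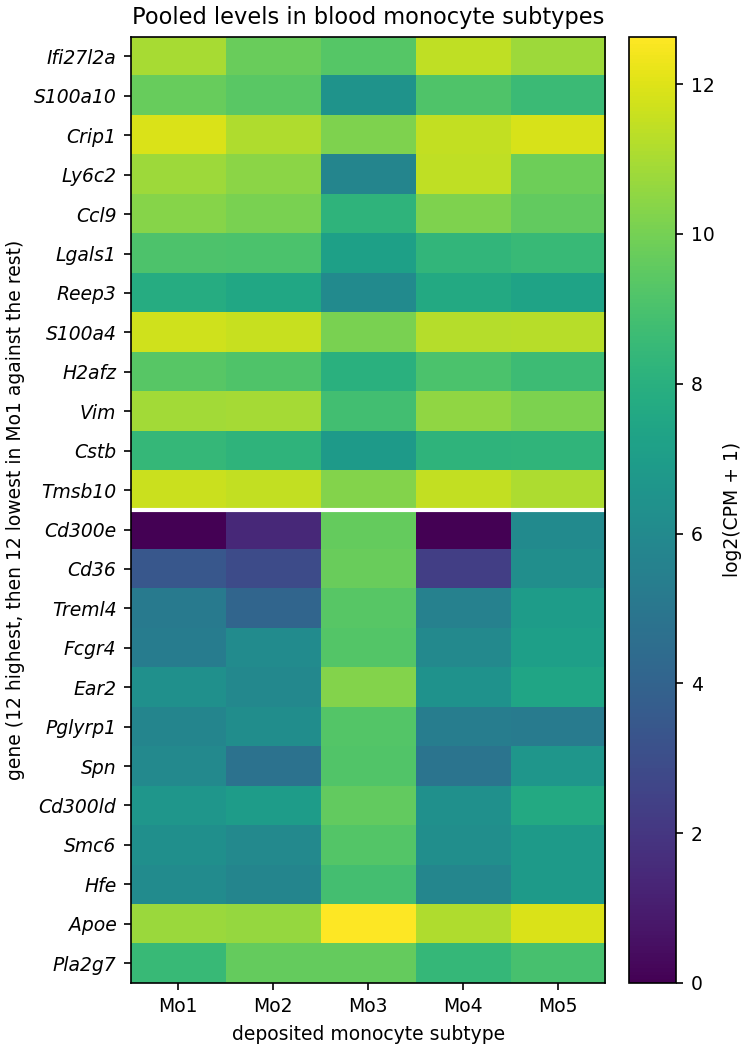
Pooled level, as log2(CPM + 1), of the 24 genes that stood highest (above the white line) or lowest (below it) in Mo1 against the other monocytes, in the 5 deposited subtypes. Mo1 resembles Mo2 and Mo4 in most rows, and Mo3 holds the genes that are low in Mo1, such as Cd36 at 850 CPM.

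Gene lists are described by counts of members and medians of the log2 ratio of pooled levels, beside a median of -0.06 over all 6105 genes. Of 13 members of the list of alarmins, annexins and cytoskeleton, 10 were higher in Mo1 (median 0.36), and 7 of them in every library. The pooled log2 ratios of these 10 over Mo2 ran from -0.18 for Anxa1 to 0.26 for S100a10, and over Mo3 from 0.06 for Tmsb4x to 3.06 for S100a10. Of 8 members of the list of MHC class II and antigen presentation, 6 were lower (median -1.64), 4 of them in every library. All 9 members of the list of glucocorticoid-responsive genes were lower by pooled level (median -0.78), but only 2 in every library, and Tsc22d3 (-0.03) and Fkbp5 (-0.70) were higher in Mo1 in 7 and 6 of 10 libraries. Lower by pooled level were also 11 of 14 of the interferon response (-0.52), 6 of 7 of the granule list (-0.74) and 12 of 15 of trafficking receptors and adhesion (-0.37), with 0, 0 and 2 members lower in every library. The remaining 8 lists had medians between -0.39 and -0.10: inflammatory cytokines and chemokines (-0.39), monocyte transcription factors (-0.37), Fc, Toll-like and complement receptors (-0.27), early response genes (-0.23), lysosome and lipid handling (-0.18), iron and antioxidant genes (-0.13), glycolysis (-0.12) and the cell cycle (-0.10).

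Between stroke day 2 and sham, no gene of Mo1 passed the test. Over 2420 genes the edgeR quasi-likelihood test with Benjamini-Hochberg adjustment called 0.0%, with 73 genes at an unadjusted p under 0.05, and DESeq2 called 0. Apoe, which encodes the lipid carrier apolipoprotein E, had the smallest p among genes of at least 50 CPM. Its level was 826, 1515, 902 and 840 CPM in the sham libraries and 1384, 1422 and 2470 CPM at stroke day 2. The groups overlapped, and the log2 difference was 0.80 ± 0.23 (SE, edgeR unadjusted p = 0.00228, edgeR adjusted p = 1.0).

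The next genes by p were Ctnna1, the adhesion protein alpha-catenin (log2 difference 1.60), Riok3, a kinase (-1.41), Bri3bp (-1.11) and Tpt1-ps3, a pseudogene whose reads can belong to its parent gene (-1.30), each with an edgeR adjusted p of 1.0. Ctnna1 stood at 89.5, 62.0, 19.9 and 35.9 CPM in sham and at 141, 178 and 93.8 CPM at stroke day 2, from 20 and 35 counts in all. The libraries of Ctnna1, Riok3 and Bri3bp did not overlap between the groups, but the test did not call them. These genes were chosen by their small p, and the share of all genes without overlap is not given here. Within the GR19 libraries alone, 13 genes were called, 2 higher (Apoe and Jun) and 11 lower, the latter all predicted genes or pseudogenes.

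At day 14, Mo1 of the stroke libraries differed from sham in 7 genes, which is 0.289% of the 2420 tested. Apoe was higher, and Wfdc21, Saa3, Lrg1, Prtn3, Dpep2 and Wfdc17 were lower. The libraries of the 2 groups did not overlap for any of the 7, which the test had picked, and the share of all genes without overlap is not given here. At an unadjusted p under 0.05 there were 164 genes, and DESeq2 called 8, 6 of them among the 7. A transcript that is lower in the sum over Mo1 can be lower in each cell or present in fewer cells, which sums do not tell apart.

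Apoe stood at 826, 1515, 902 and 840 CPM in sham and at 2352, 1945 and 2354 CPM at day 14. Every day 14 library was above every sham library. The log2 difference was 1.11 ± 0.22 (SE, edgeR adjusted p = 0.0284). In the other monocytes of the same libraries Apoe stood at 2365 to 3488 CPM in sham and 3741 to 5286 CPM at day 14, and in neutrophils it did not exceed 273 CPM.

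Saa3 encodes an acute phase serum amyloid that myeloid cells make. It stood at 128, 289, 163 and 16.2 CPM in sham, at 444, 0 and 95.1 CPM in the 3 stroke day 2 libraries tested, and at 4.12, 0 and 0 CPM at day 14. In each day 2 group 1 library lay well below the others, and all 3 day 14 libraries were at or near 0. From 57 counts in sham and 1 count at day 14, the ratio of pooled levels was 95.8 (95% counting interval 16.5 to 3849), and the edgeR adjusted p was 0.0368. Neutrophils held at most 20.6 CPM of Saa3, below most Mo1 libraries of the day 2 groups, and Mo2 held 44.6 to 1306 CPM in sham.

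Lrg1 encodes a secreted leucine-rich glycoprotein of the acute phase and of neutrophil granules. It stood at 81.8, 64.0, 196 and 34.6 CPM in sham, at 246, 49.3 and 106 CPM at stroke day 2, and at 0, 0 and 4.17 CPM at day 14. All day 2 libraries, sham or stroke, were above all day 14 libraries. The ratio of sham to day 14 was 73.9 (counting interval 12.6 to 2986) with an edgeR adjusted p of 0.0128.

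Wfdc21 and Wfdc17 encode small secreted proteins with a WAP domain, the fold of antiproteases. Wfdc21 stood at 116, 33.7, 131 and 31.5 CPM in sham, at 128, 105 and 40.8 CPM at stroke day 2, and was listed at 0 in all 3 libraries of day 14. Against a floor of 3 counts over the group, it was at least 19.0-fold lower at day 14 than in sham (edgeR adjusted p = 0.0108). Wfdc17 stood at 2667, 1848, 3204 and 2656 CPM in sham and at 1370, 1457 and 1337 CPM at day 14, a log2 difference of -0.93 ± 0.19 (SE, edgeR adjusted p = 0.0345). Lower levels at day 14 than in sham were also found in the other monocytes. There Wfdc21 stood at 54.1 to 312 CPM in sham and at 0 at day 14. Wfdc17 stood there at 1544 to 2573 and 507 to 834 CPM, Lrg1 at 49.7 to 309 and 0 to 1.7 CPM. Saa3 stood there at 13.2 to 831 and 0 to 10.9 CPM. In Mo2 alone Wfdc17 stood at 2056 to 3414 and 988 to 1547 CPM. In Mo3 alone it stood at 191 to 599 and 64.4 to 111 CPM.

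Wfdc21 and Lrg1 stood higher in neutrophils than in Mo1 in every library, and Wfdc17 in every day 2 library but in only 1 of the 3 at day 14. All 3 stood lower in neutrophils at day 14 than in sham, and the ranges overlapped for Wfdc21 alone. In neutrophils Wfdc21 stood at 3181 to 8988 CPM in sham and 1007 to 3300 CPM at day 14, Lrg1 at 2674 to 3986 and 877 to 1405 CPM, and Wfdc17 at 10092 to 17499 and 662 to 1849 CPM. The neutrophil markers Retnlg and S100a9 were listed at 0 in Mo1. The deposited counts are not whole numbers, and the step that made them so is not given in the sources used here, so the part of neutrophil RNA, or of its removal, in these 3 differences was not tested.

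Prtn3 encodes proteinase 3, a serine protease of myeloid granules, and Dpep2 a membrane dipeptidase that acts on leukotrienes. Prtn3 stood at 110, 99.9, 81.5 and 70.1 CPM in sham, at 88.7, 50.2 and 41.9 CPM at stroke day 2, and at 12.4, 9.49 and 7.87 CPM at day 14. The log2 difference of day 14 from sham was -3.00 ± 0.56 (SE, edgeR adjusted p = 0.0128), from 39 and 8 counts. Dpep2 stood at 182, 240, 149 and 151 CPM in sham, at 176, 78.7 and 169 CPM at stroke day 2, and at 36.9, 28.8 and 55.2 CPM at day 14, a log2 difference of -2.23 ± 0.36 (SE, edgeR adjusted p = 0.00883). In both genes the 3 day 14 libraries lay together below every day 2 library that was in the gene tests. Neutrophils held at most 9.81 CPM of Prtn3 and at most 47.8 CPM of Dpep2, below the lowest sham library of Mo1 in both cases. In Mo2 Prtn3 stood at 89.8 to 208 CPM in sham and at 295, 0 and 281 CPM at day 14, where few Mo2 cells remained. In all other monocytes together Prtn3 was also lower, at 54.0 to 140 CPM in sham and 4.52 to 15.2 CPM at day 14. Dpep2 stood there at 176 to 220 CPM in sham and 92.1 to 112 CPM at day 14.

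**Figure D3:**
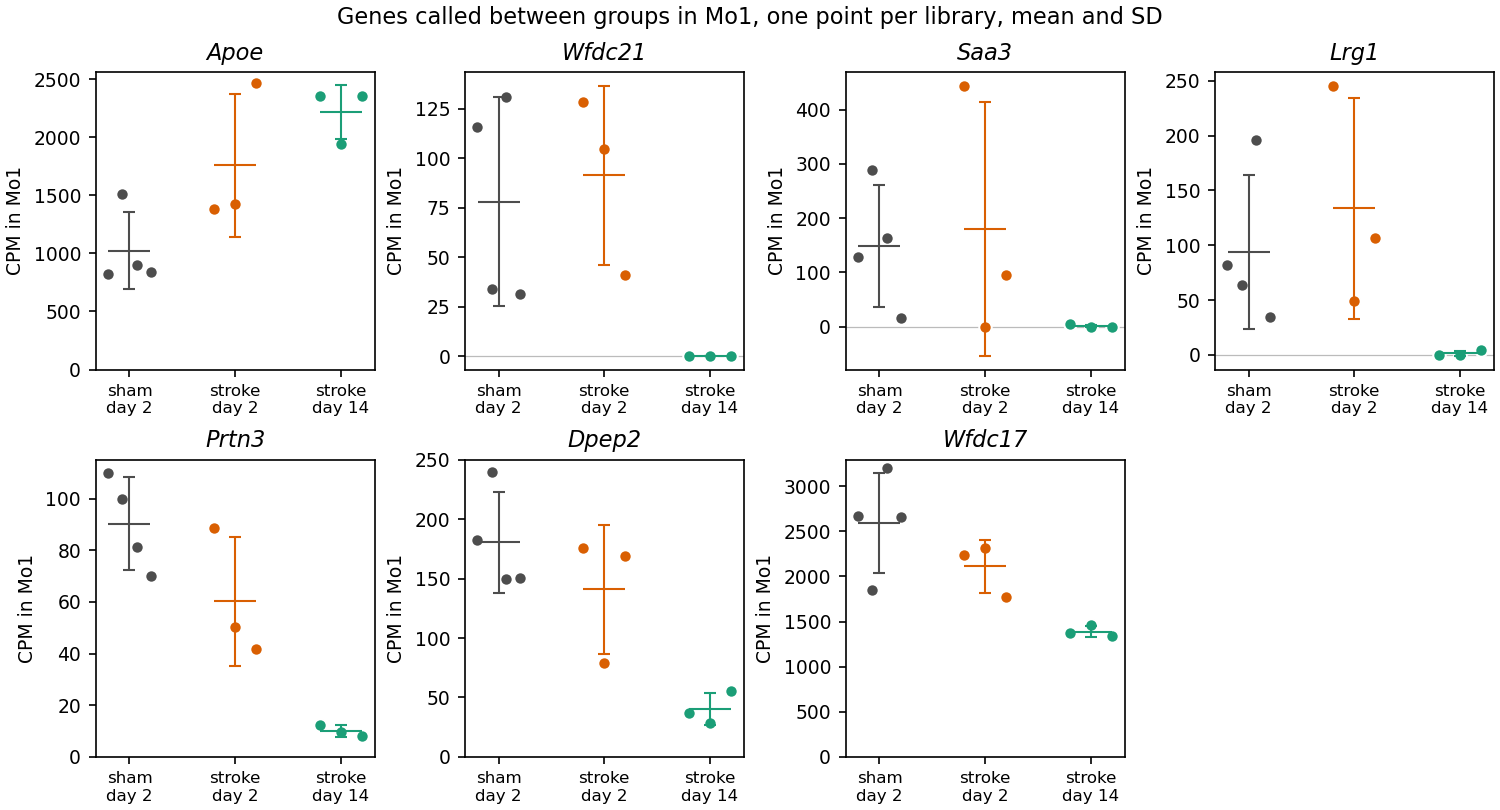
CPM in Mo1 (y axis, linear) of the 7 genes called between stroke day 14 and sham, by group (x axis). Each point is 1 of the 10 libraries with at least 20 Mo1 cells, and bars are the mean and SD. Apoe stands at 1945 to 2354 CPM at day 14, above all sham libraries, and the other 6 genes lie below all sham libraries at day 14.

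Leaving out libraries changed which genes were called, while each of the 7 kept its direction in every alternative that gave a value. Without replicate 1 or replicate 2 of day 14, no gene passed, and without sham replicate 3 only Dpep2 did. Without sham replicate 1 or sham replicate 4, 4 genes passed, and without day 14 replicate 3, 3 did. Of the 7, the Wfdc17 call was lost most often, in 13 of 21 alternatives, with adjusted p-values up to 0.329. The Saa3 call was lost in 9 of 21, among them DESeq2 (adjusted p = 0.108), and the Apoe call in 7 of 21.

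The promoters of the falling genes are shown because these genes moved together in Mo1. RefSeq (GRCm38.p6) gave a start for 5 of the 7 genes called, and the 250 bases before the start are printed for the 4 of them that fell. Capitals mark matches, on either strand, to a core of C/EBP factors, the regulators of myeloid granule and acute phase genes (TTGCNNAA), or of STAT factors (TTCNNNGAA).
Saa3, chr7:46715677-46715926, minus strand: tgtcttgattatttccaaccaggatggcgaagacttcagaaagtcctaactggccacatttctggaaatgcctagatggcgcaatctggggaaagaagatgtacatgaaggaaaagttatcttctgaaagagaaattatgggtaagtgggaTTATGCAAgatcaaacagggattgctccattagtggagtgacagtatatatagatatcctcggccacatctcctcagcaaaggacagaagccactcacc
Lrg1, chr17:56121947-56122196, minus strand: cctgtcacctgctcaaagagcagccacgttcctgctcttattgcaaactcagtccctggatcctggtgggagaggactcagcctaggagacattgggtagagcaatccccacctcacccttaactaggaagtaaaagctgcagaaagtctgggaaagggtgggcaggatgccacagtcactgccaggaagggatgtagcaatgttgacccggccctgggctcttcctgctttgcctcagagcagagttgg
Prtn3, chr10:79879417-79879666, plus strand: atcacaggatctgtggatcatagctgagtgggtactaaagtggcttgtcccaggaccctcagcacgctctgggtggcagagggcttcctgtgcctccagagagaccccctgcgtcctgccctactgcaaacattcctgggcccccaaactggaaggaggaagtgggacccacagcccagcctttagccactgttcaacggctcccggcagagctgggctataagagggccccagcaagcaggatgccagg
Wfdc17, chr11:83703806-83704055, plus strand: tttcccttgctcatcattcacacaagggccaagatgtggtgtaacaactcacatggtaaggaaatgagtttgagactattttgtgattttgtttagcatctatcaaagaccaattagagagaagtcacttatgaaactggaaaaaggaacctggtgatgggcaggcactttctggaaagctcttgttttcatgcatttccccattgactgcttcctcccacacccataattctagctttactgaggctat
Saa3 held 1 match to the C/EBP core, TTATGCAA, 99 bases before the start, and the other 3 windows held none. No STAT match was found in the 4 windows. Over all 32851 windows of this length, 9.56% held a C/EBP match and 7.02% a STAT match. A match of letters is a description and not a binding site, and the 2 motifs overlapped nowhere in these windows.

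Of the 14 members of the granule and neutrophil-like monocyte list, 5 could be tested in Mo1. All 5 were lower at day 14 than in sham, 3 of them called (Saa3, Prtn3 and Wfdc21) where 0.289% of all genes were, with a median log2 difference of -3.00 beside -0.02 over all genes. The list was chosen with results of these data known and is no independent evidence. At day 14 Wfdc21 and Saa3 stood at 0 to 4.12 CPM and Prtn3 at 7.87 to 12.4 CPM. These 3 genes passed the filter on low counts through day 2 libraries, where they stood higher. Lower values at day 14 were thus close to fixed in advance for them, and the count and the median are no result about the list. The list median is the value of Prtn3, and it stays so with Wfdc21 at its bound. Elane, Mpo and Ms4a3, granule genes of marrow progenitors, were listed at 0 in Mo1 of every library. Of the other tested members, Mmp8, a collagenase, had a log2 difference of -0.62 ± 0.29 (edgeR adjusted p = 0.716). Between stroke day 2 and sham, 3 of the 5 were higher and 2 lower, none called, with a median of 0.14.

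In the list of lysosome and lipid handling 1 of 13 tested members was called at day 14 against sham (0.289% of all genes), Apoe. The 5 tested members of the interferon list were all higher at day 14 than in sham (median 0.38), and none was called. Of these, Ifitm3, which restricts virus entry, stood at 2576 to 3847 CPM in sham and 3773 to 4018 CPM at day 14 (log2 difference 0.21 ± 0.18, edgeR adjusted p = 0.843). Ifi27l2a, outside the list, stood at 1346, 709, 2077 and 2050 CPM in sham and at 2845, 2245 and 2095 CPM at day 14 (log2 difference 0.57 ± 0.25, edgeR adjusted p = 0.691). The other 12 lists of function, interferon included, had no member called in any of the 3 comparisons of groups.

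Few markers of identity passed the test in Mo1. None of the 12 monocyte markers or the 10 classical markers tested was called in any comparison, and 1 of the 5 nonclassical markers tested was called higher at day 14 than in sham (0.289% of all genes were called), which was again Apoe. For day 14 against sham, 9 of the 12 monocyte markers had a log2 difference above 0 (median 0.27) and 7 of the 10 classical markers one below 0 (median -0.21), beside a median of -0.02 over all genes. Among the classical markers were Vcan, which encodes versican (-1.19 ± 0.32, edgeR adjusted p = 0.209), and Chil3 (-0.77 ± 0.24, edgeR adjusted p = 0.391). Ccr2 stood at 3158 to 3455 CPM in sham and 3216 to 3480 CPM at day 14 (log2 difference -0.01 ± 0.24, edgeR adjusted p = 0.997). Csf1r stood at 238, 504, 203 and 225 CPM in sham and at 421, 408 and 472 CPM at day 14 (0.59 ± 0.27, edgeR adjusted p = 0.716). For Csf1r, sham replicate 2 lay above the day 14 libraries, and the other 3 sham libraries lay below them.

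Between day 14 and stroke day 2, 2 of 2420 genes (0.0826%) were called in Mo1, with 122 at an unadjusted p under 0.05 and 4 called by DESeq2. This comparison uses the same day 14 libraries as that against sham, and both called genes were among the 7 above. Wfdc21 was at least 21.9-fold lower at day 14 (edgeR adjusted p = 0.0156), and the ratio of stroke day 2 to day 14 was 90.7 for Lrg1 (counting interval 15 to 3703, edgeR adjusted p = 0.0156). No gene was called without day 14 replicate 1, 2 or 3 or without stroke day 2 replicate 1, and 1 (Wfdc21) without stroke day 2 replicate 4. Without stroke day 2 replicate 3, 5 genes were called, and Wfdc21 was not among them (adjusted p = 0.108).

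Chil3 and Pla2g7 fell short of the threshold in this comparison but passed it with DESeq2 and with the start of the library code as a term. With only the compared groups in the fit they were the 2 genes called, while Wfdc21 and Lrg1 did not reach the filter on low counts. Chil3 encodes a chitinase-like lectin of myeloid cells and stood at 5256, 3397 and 8110 CPM at stroke day 2 and at 2405, 2383 and 2385 CPM at day 14 (log2 difference -1.24, edgeR adjusted p = 0.0521). Pla2g7 stood at 675, 455 and 976 CPM and at 263, 186 and 320 CPM (-1.51, edgeR adjusted p = 0.0746). For both genes, which were chosen by their small p, the groups did not overlap. The share of all genes without overlap is not given here. Dpep2 (-1.88, edgeR adjusted p = 0.0746), F10, the coagulation factor X (-1.22, adjusted p = 0.281), and Vcan, the proteoglycan versican (-1.28, adjusted p = 0.391), were not called either, and Saa3 overlapped between the groups (ratio 106.3 with a counting interval of 17.8 to 4321, adjusted p = 0.0746). Of the 5 granule genes tested, all 5 were lower at day 14 and 1 was called, beside 0.0826% of all genes called. Their median was -2.38, beside -0.02 over all genes. Saa3, Prtn3 and Wfdc21 passed the filter on low counts through day 2 libraries, so these values are no result about the list.

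**Figure D4:**
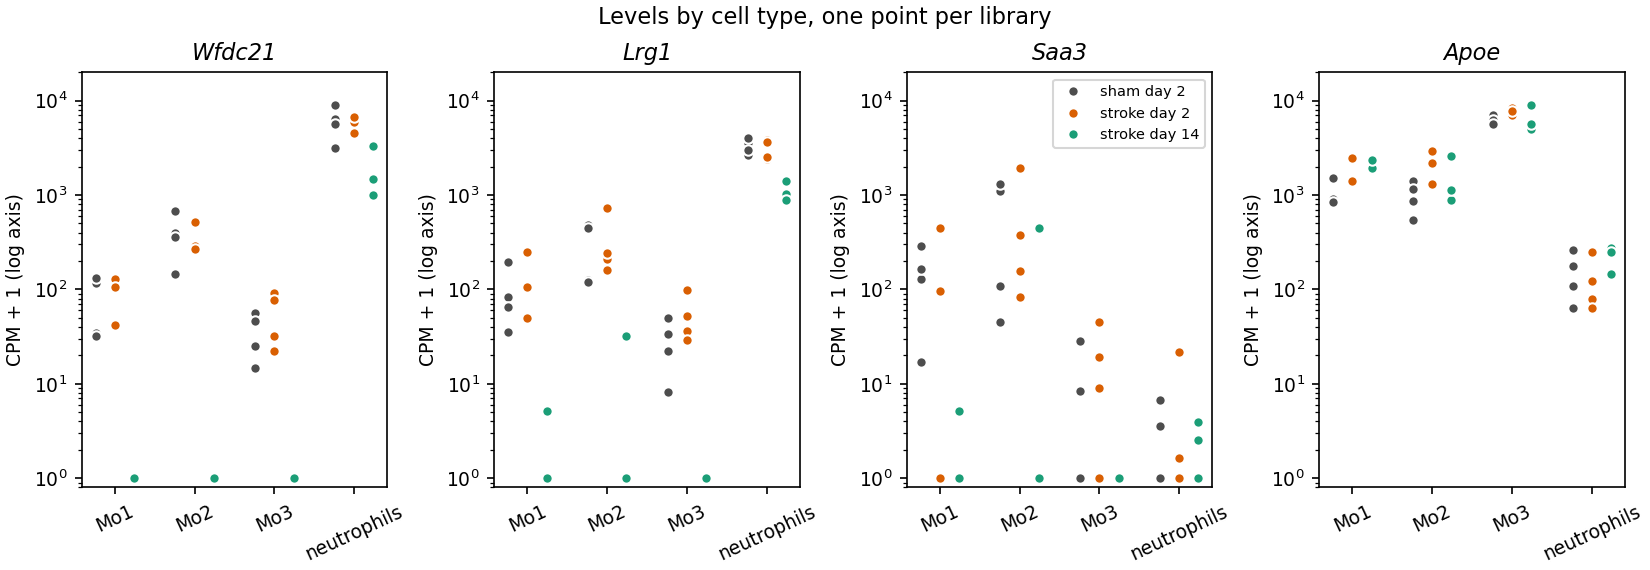
Levels of Wfdc21, Lrg1, Saa3 and Apoe as CPM + 1 (y axis, log scale) in Mo1, Mo2, Mo3 and neutrophils of each library, coloured by group. Wfdc21 and Lrg1 are highest in neutrophils and at or near 0 in Mo1 and Mo3 at day 14. In Mo2, which rests on few cells at day 14, Wfdc21 is at 0 and Lrg1 reaches 31.5 CPM. Saa3 is higher in Mo2 than in Mo1 in 3 of the 4 sham libraries, and Apoe stands at 4963 to 8947 CPM in Mo3, above the other types in every library.

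Whether Mo1 responded differently from the other monocytes was tested with both sums of each library in 1 edgeR model, with the library as a block. The difference of response is the log2 change in Mo1 minus that in the other monocytes. With the library as a block, its p-value rests on how the gap between the 2 sums of a library varies between libraries. It does not measure the spread between pools of mice that both sums share. Of 5275 genes, 0.019% differed between stroke day 2 and sham, 0.512% between day 14 and sham and 1.02% between day 14 and stroke day 2. These are 1, 27 and 54 genes, with 319, 332 and 482 at an unadjusted p under 0.05. The other monocytes are a mixture that had lost nearly all Mo2 at day 14, and a change in this mixture enters every difference at day 14.

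At stroke day 2 the single gene was Apoe. It was higher in Mo1 than in sham by 0.78, from 1020 to 1758 CPM on average, while the other monocytes stood at 2983 and 3051 CPM, a difference of response of 0.76 ± 0.15 (SE, edgeR adjusted p = 0.00154). Over all libraries of each group, Apoe also averaged higher after stroke in Mo2 (993 and 2136 CPM) and in Mo3 (6145 and 7607 CPM). The ranges overlapped in both. Mo2 made up 18.3% to 50.7% of monocytes in sham and 50.9% to 59.2% at stroke day 2. The part of this shift in the difference was not tested. The call did not hold with DESeq2 (adjusted p = 1.0), against Mo3 alone (0.57, adjusted p = 0.207), when cells under 400 counts were left out (0.69, adjusted p = 0.0912), or without sham replicate 1, sham replicate 4, stroke day 2 replicate 3 or stroke day 2 replicate 4, and without those libraries its size was 0.56 to 0.64. Its adjusted p over all alternatives ranged from 1.18e-05 to 1.0.

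At day 14 several genes of classical monocytes differed from sham less in Mo1 than in the mixture of the others. F13a1, the coagulation factor XIII subunit that marks classical monocytes, averaged 1439 CPM in sham and 1615 CPM at day 14 in Mo1, against 1202 and 668 CPM in the other monocytes (difference of response 0.99 ± 0.14, edgeR adjusted p = 5.65e-08). Fn1, which encodes fibronectin, averaged 204 and 344 CPM in Mo1 against 241 and 103 CPM (1.83 ± 0.27, adjusted p = 1.03e-07). Slpi, an inhibitor of leukocyte proteases, averaged 242 and 228 CPM in Mo1 against 264 and 68.8 CPM (1.81 ± 0.28, adjusted p = 1.65e-07).

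Chil3 and Hp, which encodes haptoglobin, averaged lower at day 14 in both, and less so in Mo1. Chil3 averaged 3978 and 2391 CPM in Mo1 against 3774 and 982 CPM in the others (difference of response 1.21 ± 0.12, edgeR adjusted p = 5.92e-17). Hp averaged 1412 and 946 CPM against 1326 and 462 CPM (0.96 ± 0.15, adjusted p = 3.05e-07). Cd74, the invariant chain of MHC class II, went the other way: it averaged 451 and 522 CPM in Mo1 against 1191 and 3416 CPM in the others (-1.30 ± 0.19, adjusted p = 2.52e-08). H2-Aa and H2-Ab1 were called with it, so that 3 of 8 members of the MHC class II list were called lower in Mo1 relative to the others, beside 0.512% of all genes called. Mo5, which held Cd74 at a pooled 11039 CPM, made up 4.61% to 7.96% of monocytes in sham and 7.97% to 10.1% at day 14, and set against Mo3 alone the Cd74 difference was -0.55 (adjusted p = 0.478).

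Against stroke day 2, the day 14 differences of response were 1.51 ± 0.13 for Chil3, 1.37 ± 0.15 for F13a1, 2.75 ± 0.32 for Mmp8, 2.31 ± 0.28 for Fn1, 1.35 ± 0.18 for Mgst1, a glutathione transferase, and 1.18 ± 0.16 for Hp, with edgeR adjusted p-values from 6.72e-24 to 4.54e-10. Of 12 members of the list of alarmins, annexins and cytoskeleton, 7 were called higher in Mo1 relative to the others, beside 1.02% of all genes called, and 0 of 12 in the comparison of day 14 with sham. Of 12 classical markers 8 were called higher and 1 lower in each of these comparisons, which share the day 14 libraries.

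Set against Mo3 alone, which stayed at 23.3% to 37.0% of monocytes at day 14, few of these differences were called. Counts of called genes were then 2, 9 and 3 in place of 1, 27 and 54, and Chil3 turned to -0.94 against sham (edgeR adjusted p = 0.0133) and to -0.05 against stroke day 2 (adjusted p = 0.996). F13a1 was at 0.02 against sham (adjusted p = 0.999) and Slpi at -0.12 (adjusted p = 0.994). Fn1 at 0.63 (adjusted p = 0.971) and Hp at 0.44 (adjusted p = 0.596) kept their direction against sham. Several of these genes stood low in Mo3, so few counts lie behind the differences. Sham means there were 13.7 CPM for F13a1, 10.6 CPM for Fn1, 22.2 CPM for Mmp8 and 38.8 CPM for Slpi. Against stroke day 2, F13a1 was at 2.06 (adjusted p = 0.295), Fn1 at 2.03 (adjusted p = 0.781), Mmp8 at 1.70 (adjusted p = 0.886), Hp at 0.63 (adjusted p = 0.674) and Mgst1 at 0.22 (adjusted p = 0.989). The 27 and 54 calls thus hold for Mo1 against a pool whose makeup had changed, and the part of that change in each was not tested.

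**Figure D5:**
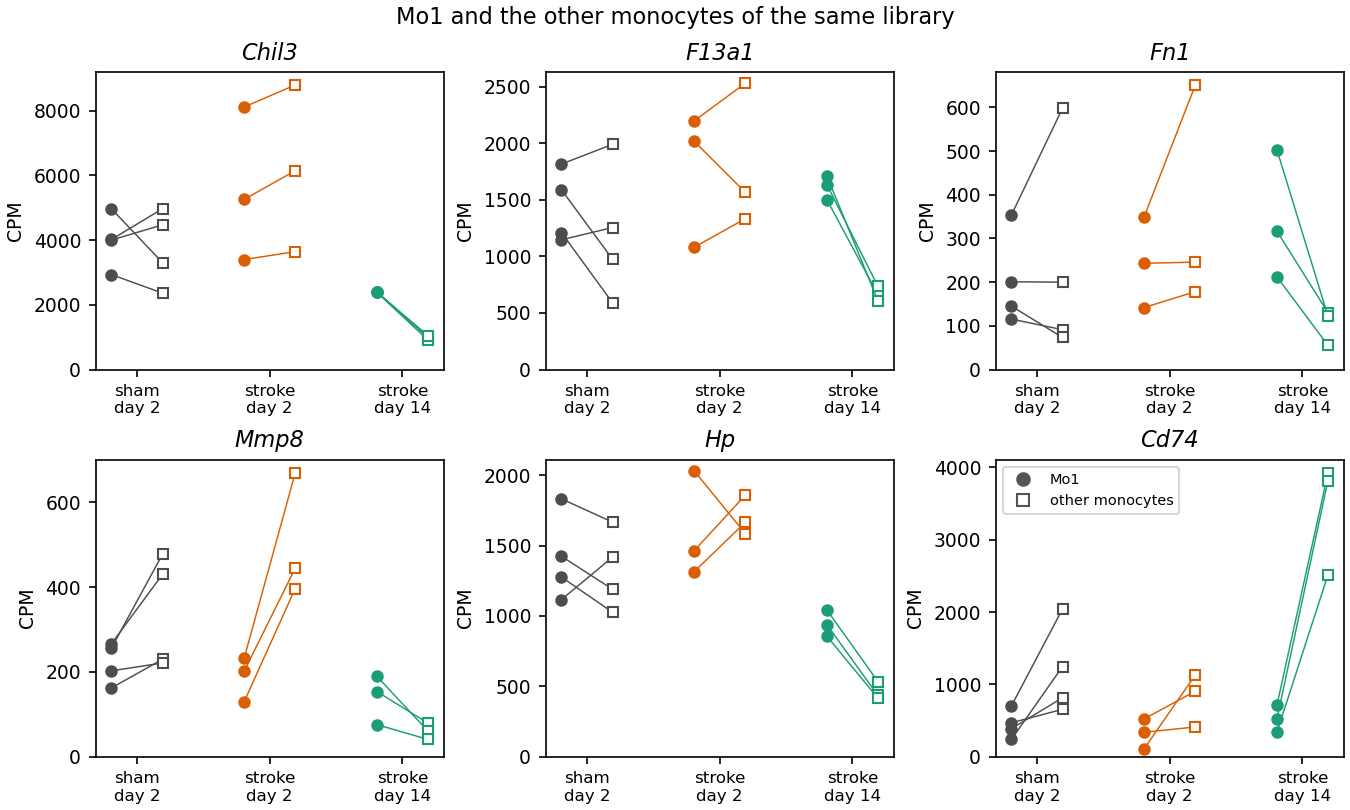
CPM (y axis, linear) of 6 genes in Mo1 (filled circles) and in the other monocytes (open squares) of the same library, joined by a line, by group. At day 14 the Chil3, F13a1, Fn1, Mmp8 and Hp lines fall from Mo1 to the other monocytes in all 3 libraries, and the Cd74 lines rise to 2514 to 3919 CPM.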

How the data were processed

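Blood leukocytes were profiled by Drop-seq, per the labels. The authors deposited expected counts per gene and cell, which are not whole numbers, with a percent of mitochondrial counts and cell type codes per cell, per the file headers. The submitters' processing notes name Seurat and mm10, with no role, and the step that made counts fractional is not given in the sources used here. Every deposited cell was kept. Counts of Mo1 cells, and of the other monocytes, were summed per library and rounded, and sums of at least 20 cells were fitted with edgeR 4.0.16 (quasi-likelihood, TMM, filterByExpr, all 3 groups, two-sided, Benjamini-Hochberg adjustment, called under 0.05). Library depth in Mo1 was 54302 to 413363 counts, and intervals and floors (3 counts) cover counting error only. Standard errors were derived from each log2 difference and its F value. Shares were compared by exact permutation, and cell numbers by edgeR over subtypes of at least 50 cells.

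Named genes were, for subtypes, the 12 highest and 12 lowest ratios. For groups they were up to 10 called genes per direction of at least 20 CPM, with 6 further genes by p at 50 CPM or more where fewer than 5 were called, and for differences of response the 6 smallest p. Predicted, ribosomal, mitochondrial and similar genes were not named, nor, among the subtype genes, those with over 10 times the level in another blood type (500 cells or more). A gene that the rule for groups chose is not reported here. The members, 14 gene lists, 11 marker lists and rules were chosen with earlier results of these data known. Alternatives were DESeq2 1.42.0, other filters, scaling, rounding, cell minimums and sets of libraries. The analysis was tested on simulated data.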

Additional observations from a re-analysis of the deposited data

Results flagged for a closer look

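Of 26 sets of 4 library values of Mo1 (gene levels in sham, and shares), 2 held a library far from the others by Dixon's ratio, where chance gives about 1 in 20. Apoe stood at 1515 CPM in sham replicate 2 and at 826 to 902 CPM in the other 3. Mgst1 stood at 651 CPM in sham replicate 2 and at 864 to 876 CPM in the others.

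The response of a gene differed between Mo1 and the other monocytes in 13 named cases by the edgeR model with the library as a block. For stroke day 2 against sham it was Apoe (log2 0.76). For day 14 against sham the differences were 1.21 for Chil3, -1.30 for Cd74, 0.99 for F13a1, 1.83 for Fn1, 1.81 for Slpi and 0.96 for Hp. For day 14 against stroke day 2 they were 1.51 for Chil3, 1.37 for F13a1, 2.75 for Mmp8, 2.31 for Fn1, 1.35 for Mgst1 and 1.18 for Hp. Mo2 made up 1.51% to 4.71% of all monocytes at day 14 and 18.3% to 59.2% in the day 2 libraries.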

How the results depend on the processing

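The differences in the share of Mo1 among monocytes kept their direction and stayed short of the threshold under all 16 alternatives each. The exact test could not pass with these numbers of libraries, so staying short carries no information. Over libraries left out, these differences ranged from -16.4 to -6.43 points (stroke day 2 against sham), 12.9 to 22.8 (day 14 against sham) and 25.2 to 33.9 (day 14 against stroke day 2). Among blood cells the log2 differences from sham then ranged from -2.23 to -0.72 at stroke day 2 and from 0.5 to 1.35 at day 14. Differences among blood cells kept direction and stayed short under all 15 alternatives, except for day 14 against stroke day 2. There the edgeR log2 difference of 2.07 (adjusted p = 0.0867) passed with the replicate block (2.91, adjusted p = 0.048), with the start of the library code as a term (2.37, adjusted p = 0.0327) and without stroke day 2 replicate 3 (3.14, adjusted p = 0.0191), and over libraries left out it ranged from 1.67 to 3.14.

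Genes called in Mo1 between stroke day 2 and sham numbered 0 under 20 of 21 alternatives and 13 among GR19 libraries. Between day 14 and sham there were 7, with 0 to 8 over libraries left out, 12 with no filter on low counts, 15 among GR19 libraries, 3 among libraries of at least 100 cells and 4 with only the compared groups. Between day 14 and stroke day 2 there were 2, with 0 to 5 over libraries left out, 4 by DESeq2, 1 with counts rounded up, 9 with no filter, 5 among GR19 libraries, 0 among libraries of at least 100 cells, 6 with the code as a term and 4 with the library of 4 cells, and with only the compared groups 2 others, Chil3 and Pla2g7. Replicate numbers shared by the groups did not pair the samples, since correlations of same-numbered libraries ran from -0.311 to 0.325, and the replicate block gave 0, 7 and 3 calls, where 6 of the 7 were shared, with Wfdc17 lost (adjusted p = 0.0776) and Gcnt2 gained.

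Differences of response called 1, 27 and 54 genes. Over libraries left out they called 0 to 2, 13 to 29 and 32 to 59, with DESeq2 0, 5 and 18, against Mo3 alone 2, 9 and 3, and for stroke day 2 against sham 0 with cells of at least 400 counts. Against Mo3 alone, Chil3 reversed to -0.94 and -0.05 and Slpi to -0.12, while the cause was not tested. The description of Mo1 kept all 24 directions except against single subtypes, with as few as 14 of 24. Scrublet marked at most 0.127% of the cells of a library and had not worked, so doublets were not treated and that alternative was not run. GR19 libraries alone and at least 100 cells, the code as a term, the 4 cell library and Mo3 alone were chosen after seeing the data. Depth limits transcripts such as Wfdc21 and Lrg1, which rest on 34 and 44 counts in sham.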
